A study of Mus musculus with 15 samples.

Results

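The genes described here are 8 regulators and markers of the primitive endoderm, Gata4, Gata6, Sox7, Sox17, Foxa2, Dab2, Pdgfra and Sparc, taken by symbol from a table of 32152 genes measured by RNA sequencing in mouse embryonic stem cells. The cells, of strain C57BL/6, were kept with serum and leukemia inhibitory factor and fall into 5 groups of 3 samples. The groups were mock-treated control cells, cells given oligomycin at 1 nM or 10 nM (low and high inhibition of oxidative phosphorylation in the labels), and cells given 5 mM or 10 mM of 2-deoxy-D-glucose, called 2-DG here (low and high inhibition of glycolysis). Oligomycin blocks the mitochondrial ATP synthase, and 2-DG is a glucose analog that blocks glycolysis. Each inhibitor was given for 48 hours. The time of the mock treatment, any feeder layer and the source of each replicate culture are not given in the labels, so the p-values speak for the spread among these 15 libraries alone.

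The primitive endoderm is the layer that separates from the epiblast inside the blastocyst and later forms the visceral and parietal endoderm of the yolk sac. FGF4 from epiblast cells acts through FGFR1 and FGFR2 to favour GATA6 over NANOG, and GATA6 is followed by SOX17, GATA4 and SOX7. Cells that take this path carry the receptor PDGFRA, the endocytic adaptor DAB2 and, as they lay down basement membrane, the matrix protein SPARC. Embryonic stem cells are epiblast-like, and forced GATA4 or GATA6 can turn them into endoderm.

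The members spanned a wide range of levels. Sparc stood at 291 to 777 FPKM (fragments per kilobase of exon scaled to the reads of the sample), Dab2 at 6.57 to 16.1 FPKM, Gata4, Gata6, Sox7 and Pdgfra between 0.444 and 3.75 FPKM, and Sox17 and Foxa2 at 0.249 FPKM or less in every sample. A gene was tested where 3 or more samples reached 1 FPKM, as 6 of the 8 members did. Sox17 and Foxa2 did not and are too low to judge. Changes are differences of log2(FPKM + 1) with their standard error from limma, fitted to all 15 samples and adjusted over the 13284 genes tested. This scale understates changes of genes near 1 FPKM, so ratios of mean FPKM are given beside it.

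Dab2 and Sparc are the members with the highest levels, and both rose with oligomycin, so the sequences upstream of their RefSeq starts are shown (GRCm38.p6, 250 bases each, 5′ to 3′ on the strand of the gene). Dab2 has a window for each of its starts, an upstream one at chr15:6299539-6299788 (+ strand) and a downstream one at chr15:6386498-6386747 (+ strand). The Sparc window is chr11:55420081-55420330 (- strand). Capitals mark GATAA or its reverse complement TTATC, the core that GATA factors bind.
Dab2 upstream start: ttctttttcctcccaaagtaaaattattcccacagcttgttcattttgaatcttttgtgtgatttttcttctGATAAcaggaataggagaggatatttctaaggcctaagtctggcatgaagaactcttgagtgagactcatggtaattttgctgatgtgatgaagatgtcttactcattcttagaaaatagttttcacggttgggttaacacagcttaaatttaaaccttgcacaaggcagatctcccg
Dab2 downstream start: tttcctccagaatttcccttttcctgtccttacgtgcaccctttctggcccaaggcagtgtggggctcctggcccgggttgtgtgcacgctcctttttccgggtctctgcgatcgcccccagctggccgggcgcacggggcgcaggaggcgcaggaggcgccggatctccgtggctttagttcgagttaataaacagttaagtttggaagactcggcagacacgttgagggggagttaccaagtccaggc
Sparc: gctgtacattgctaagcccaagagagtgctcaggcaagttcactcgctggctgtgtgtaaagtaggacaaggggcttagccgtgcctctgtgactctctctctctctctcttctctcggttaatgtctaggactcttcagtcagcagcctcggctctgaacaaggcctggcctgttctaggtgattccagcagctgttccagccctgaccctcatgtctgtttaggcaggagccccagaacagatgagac
The upstream Dab2 window held GATAA once, beginning at position -178 from the start, and the downstream Dab2 and Sparc windows held neither GATAA nor TTATC. On either strand, 22.6% of 32841 such windows of RefSeq promoters hold this core. These 3 windows held none of the other cores searched on both strands, which were ACAAT of SOX factors (27.7% of all windows), TGTTTAC of FOXA factors (3.17%), TATAAA (12.4%), CCAAT (33.9%) and TGANTCA of AP-1 (6.75%). GC content was 36.8% in the upstream Dab2 window, 60% in the downstream one and 54% in the Sparc window. A match or its lack says only what letters the window holds. Of the 8 members, 4 had an entry in the promoter table.

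Depth worked out from the steps between low values was 17.44 to 19.25 M reads (M, mega) per sample. Replicate 1 with 10 nM oligomycin stood apart. Its FPKM values summed to 285176, against 300146 to 325780 in the other 14 samples, and its root mean square deviation from its group mean was 0.181 over the genes tested, against 0.106 to 0.145. Without it Pdgfra was no longer called with 10 nM oligomycin, and the other members kept their calls there. Counts of lists with 10 nM oligomycin are given both with and without it where they differ. Every count of a list is to be read beside the shares of all genes tested. With 1 nM oligomycin 29.8% of these rose and 33.2% fell, and with 10 nM 34% rose and 41.7% fell. With 5 mM 2-DG 15% rose and 20.3% fell, and with 10 mM 21.4% rose and 26.8% fell. Marker lists of other cells moved with the groups. Summed FPKM of 21 fibroblast markers was 1765 to 1803 in control samples, 4217 to 4301 with 1 nM and 5828 to 5969 with 10 nM oligomycin, and it was 1527 to 1665 with 5 mM and 1758 to 1903 with 10 mM 2-DG. Of the 19 fibroblast markers tested, 17 rose and 0 fell with 1 nM oligomycin, and 18 rose and 0 fell with 10 nM (17 and 0 without replicate 1). With 2-DG, 2 rose and 5 fell at 5 mM, and 5 rose and 4 fell at 10 mM. The remaining 2, Dpt and S100a4, were at most 0.319 FPKM. Col1a1, the main collagen chain of connective tissue, averaged 426 ± 7.56 FPKM in control cells, 903 ± 38.6 at 1 nM and 1256 ± 34.2 at 10 nM oligomycin (SD, n = 3 each). Acta2, smooth muscle actin, averaged 577 ± 10.3, 1747 ± 44.8 and 2370 ± 126 FPKM in the same order, and it averaged 369 ± 5.09 FPKM with 5 mM and 391 ± 7.27 with 10 mM 2-DG. Because Acta2 makes up much of the fibroblast sum, the sum was also taken without it, a choice made after the values were seen. It then averaged 1202 FPKM in controls, 2512 with 1 nM and 3511 with 10 nM oligomycin, and 1243 with 5 mM and 1457 with 10 mM 2-DG. Lox, which stayed in this sum, averaged 169 ± 15.0 FPKM in controls. It averaged 446 ± 14.2 with 1 nM and 691 ± 55.3 with 10 nM oligomycin, and 227 ± 25.6 with 5 mM and 316 ± 12.6 with 10 mM 2-DG. The pluripotency markers of the labelled cell type were present in every sample. Summed FPKM of 10 of them was 1749 to 1901 in controls, 1022 to 1117 with 1 nM and 409 to 532 with 10 nM oligomycin, and 1558 to 1634 with 5 mM and 1427 to 1464 with 10 mM 2-DG. Of these 10 genes, 0 rose and 9 fell with 1 nM and 0 rose and 10 fell with 10 nM oligomycin, while 4 rose and 1 fell with 5 mM and 3 rose and 3 fell with 10 mM 2-DG. With 2-DG, Tdgf1 and Dppa5a had the largest drops in mean FPKM among the 10. Tdgf1 fell to 174 ± 9.61 FPKM with 5 mM and 146 ± 3.76 with 10 mM, against 366 ± 5.67 in controls. Dppa5a averaged 620 ± 38.0 and 568 ± 14.7 FPKM at those doses, against 740 ± 37.4 in controls. Klf2 went the other way, to 99.6 ± 8.48 FPKM with 5 mM and 86.4 ± 5.38 with 10 mM, against 50.5 ± 10.3 in controls. Summed FPKM of 13 macrophage markers was 151 to 170 in controls, 151 to 199 with 1 nM and 182 to 193 with 10 nM oligomycin, and 68.8 to 70.0 with 5 mM and 61.1 to 63.3 with 10 mM 2-DG.

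**Figure D1:**
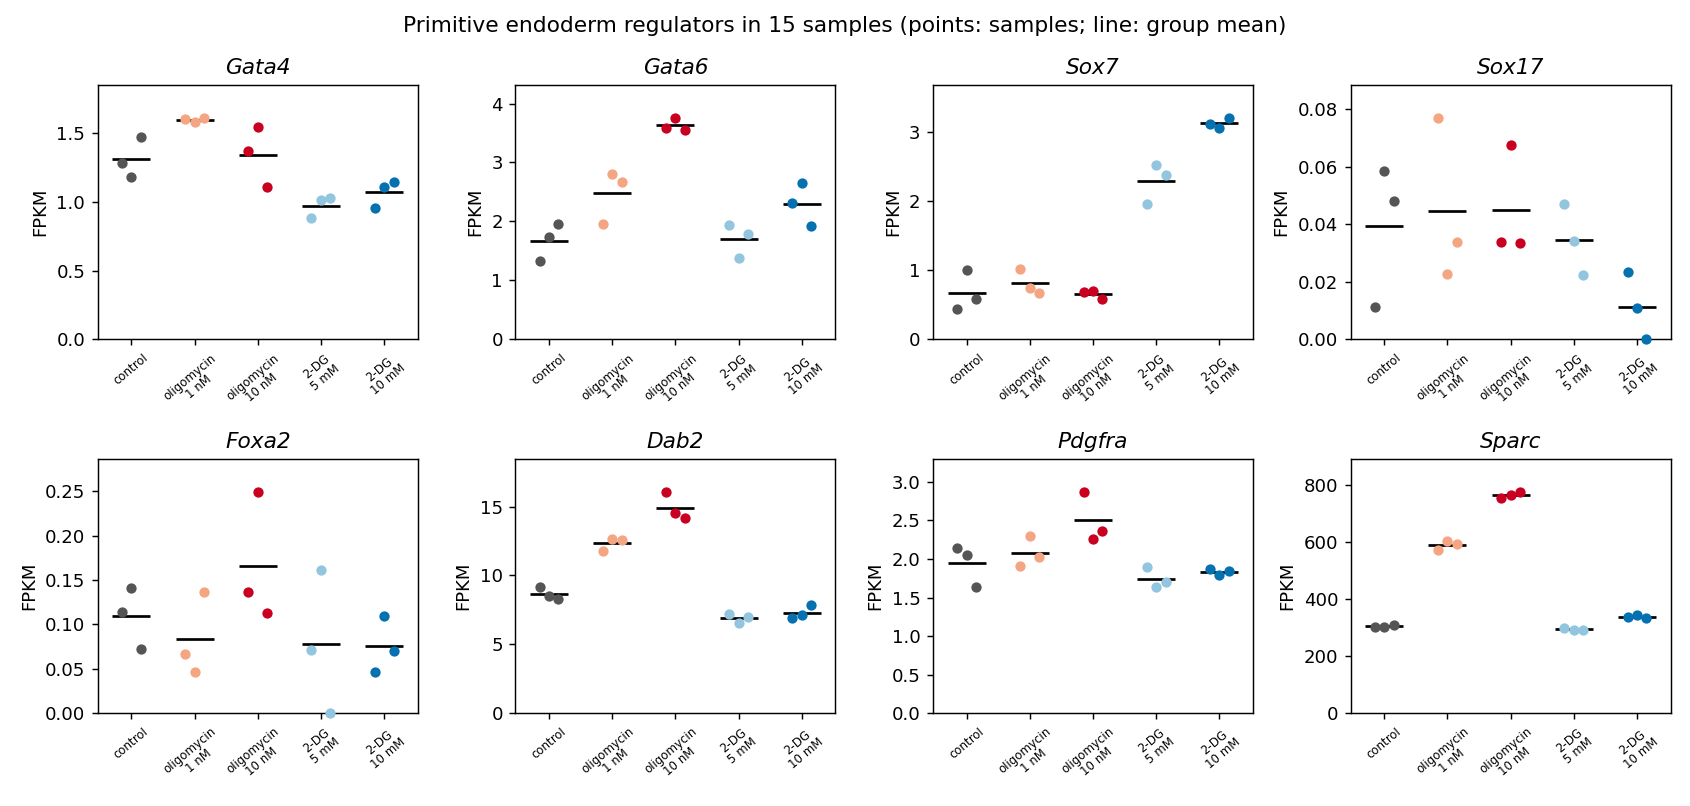
FPKM of each of the 8 members in the 15 samples, 1 panel per gene with its own axis from 0; points are samples, lines are means of 3, and the groups run from control through oligomycin to 2-DG. Sparc, Dab2 and Gata6 are highest with 10 nM oligomycin, Sox7 is highest with 10 mM 2-DG, and Sox17 and Foxa2 stay at or below 0.249 FPKM.

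Gata6 (ENSMUSG00000005836, chr18:11052510-11085635, + strand), the zinc finger factor that starts the primitive endoderm programme, rose with oligomycin. It measured 1.32, 1.73 and 1.96 FPKM in the control samples, 1.95, 2.80 and 2.67 FPKM with 1 nM and 3.58, 3.75 and 3.56 FPKM with 10 nM oligomycin. The 10 nM samples lay above all others, while the lowest 1 nM sample lay just under the highest control. The change was 0.38 ± 0.12 at 1 nM (adjusted p = 0.012, ratio of means 1.48) and 0.80 ± 0.12 at 10 nM (adjusted p = 2.5e-05, ratio 2.17). The step of 10 nM over 1 nM was 0.42 ± 0.12 (adjusted p = 0.0097). The 1 nM call was lost without control replicate 1 or without 1 nM replicate 2 (adjusted p of 0.065 and 0.058), and the step was lost without 1 nM replicate 1 (adjusted p = 0.052). Each Gata6 value rested on 78 to 223 reads, worked out with an exon length of 3194 bases where the annotation gives 6508; with a length 2.0 times as great the reads would be that many times more.

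Gata6 measured 1.94, 1.39 and 1.79 FPKM with 5 mM and 2.32, 2.65 and 1.93 FPKM with 10 mM 2-DG. The 5 mM samples lay within the span of the controls, and the change was 0.02 ± 0.12 (adjusted p = 0.92). At 10 mM the change of 0.31 ± 0.12 was past the threshold (adjusted p = 0.046), but the ranges overlapped and 7 of 13 alternative analyses lost the call, with adjusted p up to 0.19. Gata6 was lower with 10 mM 2-DG than with 10 nM oligomycin by a change of -0.49 ± 0.12 (adjusted p = 0.0018), with the ranges apart. In order of mean level the groups ran 10 nM oligomycin, 1 nM oligomycin, 10 mM 2-DG, 5 mM 2-DG and control, and only the highest neighbours in that order did not overlap.

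With 1 nM and 10 nM oligomycin the fibroblast marker sum averaged 2.39 and 3.30 times the control mean, where Gata6 averaged 1.48 and 2.17 times. Per 1000 FPKM of the summed fibroblast markers, Gata6 averaged 0.940 in controls, 0.582 with 1 nM and 0.617 with 10 nM oligomycin, and 1.05 with 5 mM and 1.24 with 10 mM 2-DG. With Acta2 left out of the sum these values were 1.39, 0.984 and 1.04 over control, 1 nM and 10 nM, and 1.37 and 1.57 with 5 mM and 10 mM 2-DG. The part of other cells in the rise of Gata6 was not tested. In these bulk samples fewer cells of a type and less RNA per cell cannot be told apart, for every gene described here.

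Gata4 (ENSMUSG00000021944, chr14:63198922-63271692, - strand), the related factor that follows Gata6 in the endoderm, changed little. It measured 1.28, 1.17 and 1.47 FPKM in controls, 1.60, 1.58 and 1.61 FPKM with 1 nM and 1.37, 1.54 and 1.11 FPKM with 10 nM oligomycin. The 1 nM samples were tightly grouped above all controls, yet the change of 0.17 ± 0.08 missed the threshold (adjusted p = 0.077), and at 10 nM the change was 0.02 ± 0.08 (adjusted p = 0.85). Gata4 measured 0.878, 1.01 and 1.03 FPKM with 5 mM and 0.955, 1.10 and 1.14 FPKM with 10 mM 2-DG. All 6 of these samples lay below all controls. The change was -0.23 ± 0.08 at 5 mM (adjusted p = 0.042) and -0.16 ± 0.08 at 10 mM (adjusted p = 0.12, 95% interval -0.33 to 0.01). The 5 mM call did not hold in 10 of 13 alternative analyses, where adjusted p was 0.061 to 0.17. Each value rested on 61 to 119 reads. The mean of Gata4 was highest with 1 nM oligomycin, where that of Gata6 was highest with 10 nM. For Gata4, the neighbours in order of mean level that did not overlap were 1 nM against 10 nM oligomycin and control against 10 mM 2-DG.

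Sox7 (ENSMUSG00000063060, chr14:63943673-63950732, + strand), a SOXF factor of parietal endoderm and of endothelium, rose with both doses of 2-DG and was not called with either dose of oligomycin. It measured 0.444, 1.00 and 0.591 FPKM in controls, 1.96, 2.52 and 2.38 FPKM with 5 mM and 3.12, 3.06 and 3.20 FPKM with 10 mM 2-DG. These 3 groups were apart, and reads rose with them, at 27 to 59 in controls, 115 to 152 at 5 mM and 185 to 194 at 10 mM. The change was 0.98 ± 0.11 at 5 mM (adjusted p = 1.8e-05, ratio of means 3.37) and 1.31 ± 0.11 at 10 mM (adjusted p = 6.2e-07, ratio 4.61). Each of the 13 alternatives kept both calls. With a pseudocount of 0.1 in place of 1 the changes were 1.67 at 5 mM and 2.11 at 10 mM. The step of 10 mM over 5 mM was 0.33 ± 0.11 and missed the threshold (adjusted p = 0.10, 95% interval 0.09 to 0.57), although the samples did not overlap, and it passed when only those groups were fitted (adjusted p = 0.048).

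With oligomycin Sox7 measured 1.02, 0.745 and 0.671 FPKM at 1 nM and 0.686, 0.700 and 0.582 FPKM at 10 nM. Both groups overlapped the controls, whose own spread was the widest of the 3. The change was 0.12 ± 0.11 at 1 nM (adjusted p = 0.37, 95% interval -0.12 to 0.36) and -0.01 ± 0.11 at 10 nM (adjusted p = 0.96, 95% interval -0.25 to 0.24). Without control replicate 2, the highest control, the 1 nM change was 0.25 (adjusted p = 0.045). The difference between 10 mM 2-DG and 10 nM oligomycin was 1.32 ± 0.11 (adjusted p = 1.1e-07, ratio 4.76). In order of mean level the groups ran 10 mM 2-DG, 5 mM 2-DG, 1 nM oligomycin, control and 10 nM oligomycin, and the last 3 overlapped.

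Endothelial markers did not move one way. The summed FPKM of the 12 listed was 12.7 to 13.7 in controls, 15.4 to 16.8 with 1 nM and 12.7 to 13.8 with 10 nM oligomycin, and 10.6 to 11.7 with 5 mM and 10.8 to 12 with 10 mM 2-DG. Of the 4 that passed the filter, 2 rose and 0 fell with 1 nM and 1 rose and 3 fell with 10 nM oligomycin, and 1 rose and 2 fell at each dose of 2-DG. The gene that rose with 2-DG was Tek, an endothelial receptor, chosen after its values were seen. Tek averaged 2.40 ± 0.230 FPKM with 5 mM and 2.48 ± 0.201 with 10 mM 2-DG, against 1.42 ± 0.0585 in controls (SD, n = 3 each), and all 6 samples lay above all controls. Its change was 0.49 ± 0.07 at 5 mM (adjusted p = 0.00014) and 0.52 ± 0.07 at 10 mM (adjusted p = 4.5e-05), where oligomycin gave -0.11 (not called) and -0.34. Pecam1, an adhesion molecule of endothelium, fell to 3.23 ± 0.208 FPKM with 5 mM and 3.78 ± 0.347 with 10 mM 2-DG, against 4.63 ± 0.268 in controls. Flt1, a VEGF receptor, rose to 5.65 ± 0.242 and 6.82 ± 0.744 FPKM with 1 nM and 10 nM oligomycin, against 2.85 ± 0.356 in controls, and was not called with 2-DG. Cdh5, the cadherin of endothelial junctions, was at most 0.178 FPKM in any sample, and the endothelial receptor Tie1 at most 0.105. Sox18, the SOXF relative that endothelium also uses, averaged 1.04 ± 0.236 FPKM in controls, 0.331 ± 0.0595 with 1 nM and 0.166 ± 0.000826 with 10 nM oligomycin, and 0.215 ± 0.0433 with 5 mM and 0.134 ± 0.0677 with 10 mM 2-DG (SD, n = 3 each). Sox18 lay under the filter and was not tested, and it was picked with its values known. The part that endothelial cells had in the rise of Sox7 was not tested. Sox7 and Gata4 lie on the same chromosome with 671980 bases between them. Of the 9 genes in that gap, 5 were tested, and at each 2-DG dose 1 of them was higher than in control and 1 lower. Over all genes tested, 15% were higher and 20.3% lower at 5 mM, and 21.4% higher and 26.8% lower at 10 mM.

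Among all genes tested, the profile nearest to that of Sox7 over the 15 samples was that of Hspa5, which encodes the endoplasmic reticulum chaperone BiP, with a root mean square difference of 0.124 between centred log2 values. Hspa5 averaged 213 FPKM in controls, 404 FPKM with 5 mM and 491 FPKM with 10 mM 2-DG, against 214 and 222 FPKM with 1 nM and 10 nM oligomycin. Its change was 0.92 ± 0.07 at 5 mM (adjusted p = 3.8e-07) and 1.20 ± 0.07 at 10 mM 2-DG (adjusted p = 1.4e-08). Pdia4, a disulfide isomerase of the same compartment, was next at 0.157, with 74.8 FPKM in controls, 148 FPKM with 5 mM and 193 FPKM with 10 mM 2-DG. Atp12a, a proton pump subunit, followed at 0.164 and averaged 0.214 FPKM in controls, 1.20 FPKM with 5 mM and 1.48 FPKM with 10 mM 2-DG. Sox7 itself varied by 0.566 around its mean on this scale. The scale understates the changes of Sox7, near 1 FPKM, more than those of Hspa5. Ratios of means over control were 3.37 and 4.61 for Sox7 with 5 mM and 10 mM 2-DG, and 1.89 and 2.30 for Hspa5. The small difference between their profiles belongs to this scale, and nearness was not tested on another.

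**Figure D2:**
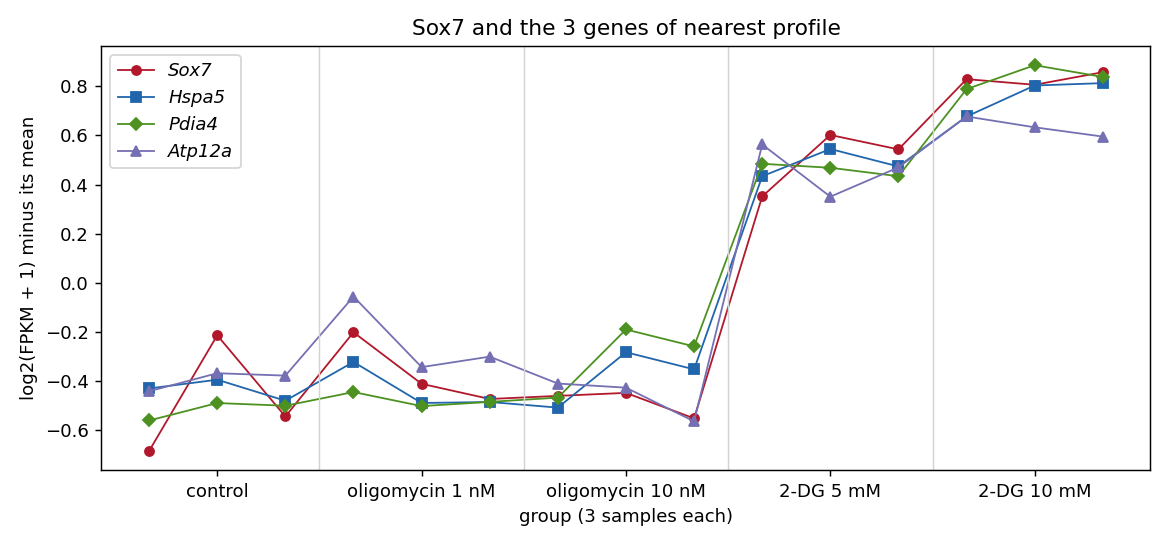
Log2(FPKM + 1) of Sox7 and its 3 nearest genes, each minus its mean over 15 samples, with samples in order of group along the horizontal axis. The 4 genes are low in control and oligomycin samples and high in all 6 samples with 2-DG. Hspa5 has the smallest root mean square difference to Sox7, 0.124, on this scale, which understates changes of genes near 1 FPKM such as Sox7.

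Sox17 (ENSMUSG00000025902, chr1:4490931-4497354, - strand), the SOXF factor of early primitive and definitive endoderm, was too low to judge. It measured 0.0114, 0.0586 and 0.0481 FPKM in controls, 0.0769, 0.0229 and 0.034 FPKM with 1 nM and 0.0339, 0.0676 and 0.0336 FPKM with 10 nM oligomycin, and 0.0471, 0.0344 and 0.0224 FPKM with 5 mM and 0.0233, 0.0109 and 0 FPKM with 10 mM 2-DG. These values are 0 to 7 reads in a sample. Over the 3 samples of a group this was 10 reads in controls, 12 with 1 nM and 12 with 10 nM oligomycin, and 9 with 5 mM and 3 with 10 mM 2-DG. Foxa2 (ENSMUSG00000037025, chr2:148042877-148046969, - strand), the forkhead factor of visceral and definitive endoderm, was too low to judge as well. It measured 0.114, 0.142 and 0.0726 FPKM in controls, 0.0664, 0.0461 and 0.137 FPKM with 1 nM and 0.136, 0.249 and 0.113 FPKM with 10 nM oligomycin, and 0.0712, 0.162 and 0 FPKM with 5 mM and 0.047, 0.11 and 0.0696 FPKM with 10 mM 2-DG. These values are 0 to 11 reads in a sample. Its reads over a group were 14 in controls, 11 and 22 with 1 nM and 10 nM oligomycin, and 10 with each dose of 2-DG. For both genes the groups next to each other in level overlapped, 1 sample of each was listed at 0, and no comparison was called when the filter was dropped. Any difference was not detectable at this depth.

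Pdgfra (ENSMUSG00000029231, chr5:75152292-75198215, + strand), the receptor for PDGF-A that marks the primitive endoderm and also many fibroblasts, rose slightly with the high oligomycin dose. It measured 2.14, 2.05 and 1.64 FPKM in controls, 1.91, 2.29 and 2.03 FPKM with 1 nM and 2.87, 2.26 and 2.37 FPKM with 10 nM oligomycin. All 10 nM samples lay above all controls, and the 1 nM samples overlapped both. The change at 10 nM was 0.25 ± 0.08 (adjusted p = 0.015, ratio of means 1.29), and at 1 nM it was 0.07 ± 0.08 (adjusted p = 0.50). The 10 nM call was lost when only those groups were fitted, without control replicate 3 or without 10 nM replicate 1 (adjusted p of 0.060 to 0.078). Pdgfra measured 1.89, 1.64 and 1.71 FPKM with 5 mM and 1.88, 1.79 and 1.84 FPKM with 10 mM 2-DG, all inside the control range. The changes were -0.10 ± 0.08 and -0.05 ± 0.08 (adjusted p of 0.39 and 0.65). Every pair of neighbouring groups in order of level overlapped. Per 1000 FPKM of fibroblast markers, Pdgfra averaged 1.09 in controls, 0.489 with 1 nM and 0.425 with 10 nM oligomycin, and 1.08 with 5 mM and 0.995 with 10 mM 2-DG. With Acta2 left out of the sum, it averaged 1.62, 0.828 and 0.710 over control and the oligomycin doses, and 1.41 and 1.26 with 5 mM and 10 mM 2-DG; the part of fibroblasts in its rise was not tested.

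Most other genes of the PDGF list rose with oligomycin. Of these 6 genes, all tested, 5 rose and 0 fell at each oligomycin dose, with a median change of 0.67 at 1 nM and 0.84 at 10 nM, where the median over all genes was -0.03 and -0.08. With 2-DG, 2 rose and 1 fell at 5 mM, and 5 rose and 1 fell at 10 mM, with medians of 0.13 and 0.30. The ligand Pdgfa averaged 10.2 ± 0.672 FPKM in controls, 15.7 ± 0.884 with 1 nM and 18.1 ± 1.89 with 10 nM oligomycin (SD, n = 3 each), changes of 0.57 and 0.76. It also rose with 5 mM and 10 mM 2-DG, by 0.27 and 0.25 (adjusted p of 0.0068 and 0.0082). The second receptor Pdgfrb, which is also in the fibroblast list, averaged 11.1 ± 0.246 FPKM in controls, 23.0 ± 1.76 with 1 nM and 31.4 ± 2.33 with 10 nM oligomycin. The ligand Pdgfc rose in all 4 comparisons with control, by 0.35 and 0.49 with 1 nM and 10 nM oligomycin and by 0.56 and 0.65 with 5 mM and 10 mM 2-DG.

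Dab2 (ENSMUSG00000022150, chr15:6299788-6440712, + strand), a clathrin adaptor that sorts cell-surface receptors in the endoderm, rose with oligomycin and fell with 2-DG. It measured 9.16, 8.49 and 8.32 FPKM in controls, 11.8, 12.6 and 12.6 FPKM with 1 nM and 16.1, 14.5 and 14.2 FPKM with 10 nM oligomycin. The 3 groups were apart and stepped up with dose. Changes were 0.47 ± 0.06 at 1 nM (adjusted p = 1.6e-05) and 0.72 ± 0.06 at 10 nM (adjusted p = 9e-08), and 0.25 ± 0.06 for 10 nM over 1 nM (adjusted p = 0.0039). Dab2 measured 7.17, 6.57 and 6.95 FPKM with 5 mM and 6.88, 7.10 and 7.84 FPKM with 10 mM 2-DG, all below the controls. It fell by 0.29 ± 0.06 at 5 mM (adjusted p = 0.0023) and by 0.22 ± 0.06 at 10 mM (adjusted p = 0.0082), and the doses overlapped each other. The difference between 10 mM 2-DG and 10 nM oligomycin was -0.94 ± 0.06 (adjusted p = 7.1e-09, ratio 0.488). No alternative changed a call of Dab2.

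Macrophages also carry Dab2, and macrophage markers moved with the 2-DG groups. Of 11 tested of the 13 listed, 0 rose and 8 fell at 5 mM, and 0 rose and 7 fell at 10 mM; the other 2, Ptprc and Aif1, were at most 1.02 FPKM. Pf4, a chemokine of platelets and some tissue macrophages, averaged 0.938 ± 0.199 FPKM with 5 mM and 0.624 ± 0.091 with 10 mM 2-DG, against 11.5 ± 0.51 in controls (SD, n = 3 each). The lysozyme gene Lyz2 averaged 40.3 ± 0.541 FPKM with 5 mM and 35.4 ± 1.28 with 10 mM 2-DG, against 95.1 ± 5.86 in controls. Lyz2 makes up much of the macrophage sum. Cd68 did not follow, at 12.7 ± 0.851 FPKM with 5 mM and 11.2 ± 0.766 with 10 mM 2-DG, against 11.7 ± 0.951 in controls. With oligomycin 3 macrophage markers rose and 3 fell at 1 nM, and 5 rose and 3 fell at 10 nM (3 and 3 without replicate 1). Cd68 averaged 20.6 ± 0.545 FPKM with 1 nM and 21.8 ± 1.57 with 10 nM oligomycin. C1qa averaged 8.85 ± 1.81 and 7.02 ± 0.232 FPKM at those doses, against 14.6 ± 1.68 in controls. Per 1000 FPKM of fibroblast markers, Dab2 averaged 4.86 in controls, 2.90 with 1 nM and 2.53 with 10 nM oligomycin, and 4.28 with 5 mM and 3.95 with 10 mM 2-DG. With Acta2 left out of the sum, it averaged 7.20, 4.91 and 4.25 over control and the oligomycin doses, and 5.56 and 5.01 with 5 mM and 10 mM 2-DG. The part of either cell type in the changes of Dab2 was not tested.

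Genes of the endocytic machinery around DAB2 did not move one way. Of 10 tested of 12, 4 rose and 1 fell with 1 nM and 4 rose and 2 fell with 10 nM oligomycin (4 and 4 without replicate 1), and 2 rose and 3 fell with 5 mM and 3 rose and 3 fell with 10 mM 2-DG. Lrp1, a large scavenger receptor, averaged 30.8 ± 3 FPKM in controls, 56.5 ± 7.25 with 1 nM and 81.9 ± 28.3 with 10 nM oligomycin (changes of 0.85 and 1.33). Its 10 nM samples measured 114, 59.7 and 72.1 FPKM, and without replicate 1 the change was 1.07. Lrp2, the megalin receptor that DAB2 serves in the visceral endoderm, averaged 4.68 to 5.45 FPKM over the groups and was not called (adjusted p of 0.22 to 0.85); it is given though the naming rule did not select it. Cltc, the clathrin heavy chain, was not called against control either with all samples, at adjusted p of 0.12 to 0.39. Its 10 nM samples measured 113, 77.8 and 85.0 FPKM, against 89.7 to 107 in controls. Without replicate 1 of 10 nM, Cltc was called lower with that dose (change -0.27, adjusted p = 0.0032). The 3 genes with the profiles nearest to Dab2 were Steap2, Ahcyl1 and Trp53inp2, at root mean square differences of 0.0534, 0.0578 and 0.0589.

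Sparc (ENSMUSG00000018593, chr11:55394500-55423183, - strand), a secreted glycoprotein that binds collagen and is abundant in parietal endoderm and in fibroblasts, made up nearly all of the members' summed level and rose with oligomycin. It measured 304, 304 and 310 FPKM in controls, 574, 605 and 594 FPKM with 1 nM and 755, 768 and 777 FPKM with 10 nM oligomycin. The groups were far apart, with ratios of means to control of 1.93 and 2.51. Changes were 0.95 ± 0.04 at 1 nM (adjusted p = 9.6e-10), 1.32 ± 0.04 at 10 nM (adjusted p = 6.1e-12) and 0.38 ± 0.04 for 10 nM over 1 nM (adjusted p = 1e-05). All alternatives kept these calls, but quantile normalization reduced the step of 10 nM over 1 nM to 0.15 (adjusted p = 0.035).

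With 2-DG Sparc measured 301, 292 and 291 FPKM at 5 mM and 337, 345 and 336 FPKM at 10 mM. The 5 mM samples lay below all controls without reaching the threshold (change -0.05 ± 0.04, adjusted p = 0.36, 95% interval -0.14 to 0.04). The 10 mM samples lay above all controls, and the rise of 0.15 ± 0.04 was past it (adjusted p = 0.010, ratio 1.11). The step of 10 mM over 5 mM was 0.20 ± 0.04 (adjusted p = 0.014), a call lost in 4 alternatives (adjusted p of 0.057 to 0.079), namely quantile normalization and leaving out replicate 2 or 3 of 5 mM or replicate 2 of 10 mM. Against 10 nM oligomycin the difference at 10 mM 2-DG was -1.17 ± 0.04 (adjusted p = 2.3e-11). No neighbouring groups overlapped in the order 10 nM oligomycin, 1 nM oligomycin, 10 mM 2-DG, control and 5 mM 2-DG.

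Set against the fibroblast markers, Sparc was lower with oligomycin. Per 1000 FPKM of their sum it averaged 172 in controls, 139 with 1 nM and 130 with 10 nM oligomycin, and it averaged 183 with 5 mM and 184 with 10 mM 2-DG. With Acta2 left out of the sum it averaged 254 ± 8.08, 235 ± 6.13 and 219 ± 14.8 over control, 1 nM and 10 nM, and 238 ± 14.4 and 233 ± 10.5 with 5 mM and 10 mM 2-DG (SD, n = 3 each), so that the 2-DG means lay above the control mean with Acta2 in the sum and below it without. Per 1000 FPKM of Col1a1 alone, Sparc averaged 717 ± 7.18 in controls, 655 ± 27.02 and 611 ± 23.9 with 1 nM and 10 nM oligomycin, and 693 ± 52.2 and 709 ± 60.04 with 5 mM and 10 mM 2-DG. With 2-DG the full sum was 0.905 and 1.04 times the control mean at 5 mM and 10 mM. Both sums hold Lox, whose mean was higher with 2-DG than in controls. No member was set against a sum without Lox. Whether the Sparc transcripts came from stem cells, endoderm or fibroblasts was not tested. The nearest profile to that of Sparc belonged to Igf2, a fetal growth factor gene, with a root mean square difference of 0.0480. Igf2 averaged 126 FPKM in controls, 239 FPKM with 1 nM and 319 FPKM with 10 nM oligomycin, and 130 FPKM with 5 mM and 142 FPKM with 10 mM 2-DG. Sh3bp5 and Rhoj followed at 0.0584 and 0.0592.

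**Figure D3:**
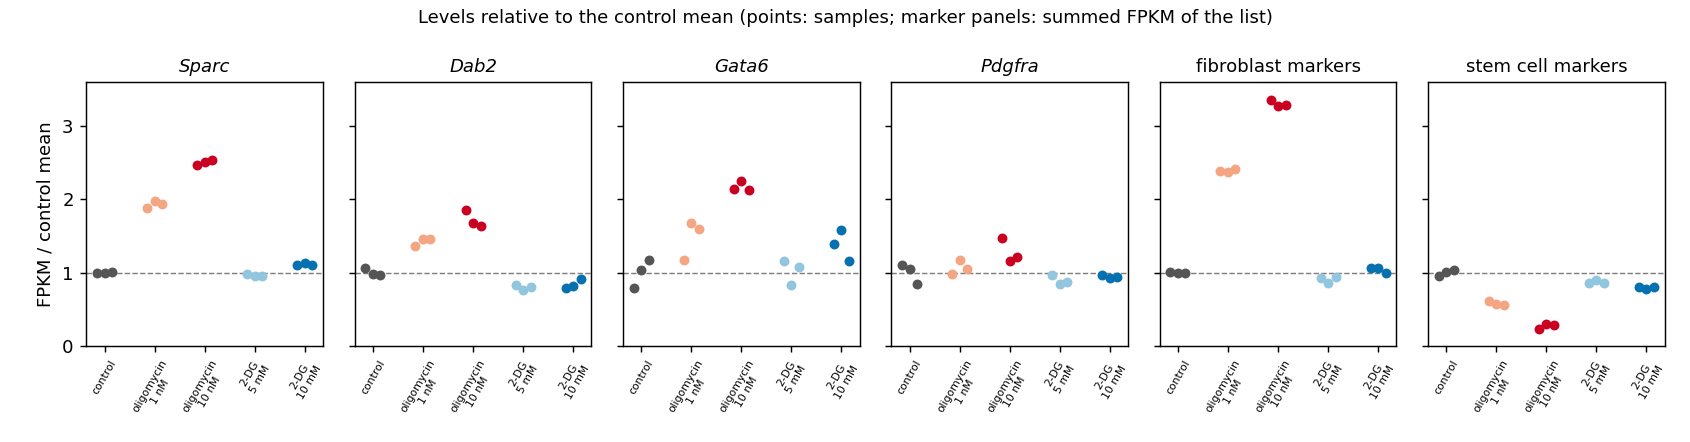
Level of Sparc, Dab2, Gata6 and Pdgfra and the summed FPKM of fibroblast and stem cell markers in each sample, divided by the control mean, on a linear axis from 0; the dashed line is 1 and points are samples. With 10 nM oligomycin, Sparc averages 2.51 and fibroblast markers 3.30 times the control mean, while stem cell markers average 0.264 times it.

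The basement membrane list rose widely with oligomycin. Of its 18 genes, all tested, 15 rose and 1 fell at 1 nM and 14 rose and 2 fell at 10 nM (14 and 4 without replicate 1), with median changes of 0.69 and 1.07. Col4a1 averaged 96.7 ± 4.75 FPKM in controls, 219 ± 6.72 with 1 nM and 319 ± 42.3 with 10 nM oligomycin (changes of 1.17 and 1.71, the second 1.60 without replicate 1), and its partner chain Col4a2 changed by 1.20 and 1.69. The collagen chaperone gene Serpinh1 averaged 229 ± 15.5, 456 ± 10.5 and 711 ± 92.8 FPKM in the same order. Within the 10 nM group, replicate 1 was the highest for Col4a1, at 367 FPKM against 289 and 302, and the lowest for Serpinh1, at 605 FPKM against 776 and 753. These genes are made by fibroblasts as well as by parietal endoderm. Lama1, the laminin chain of early embryonic basement membranes, rose at 1 nM and fell at 10 nM. It averaged 6.64 ± 0.377 FPKM in controls, 8.22 ± 0.883 with 1 nM and 2.84 ± 0.562 with 10 nM oligomycin, with changes of 0.27 (adjusted p = 0.021) and -1.0 (adjusted p = 2.1e-07).

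With 2-DG, 5 basement membrane genes rose and 3 fell at 5 mM, and 8 rose and 3 fell at 10 mM, with medians of 0.16 and 0.24. Lamb2, a laminin beta chain, had the largest rise of the list, at 35.8 ± 2.18 FPKM with 5 mM and 46.4 ± 3.58 with 10 mM, against 10.4 ± 0.674 in controls (changes of 1.69 and 2.05). Lama1 averaged 10.6 ± 0.278 and 10.5 ± 0.58 FPKM at those doses (changes of 0.60 and 0.59). Col4a1 changed by 0.07 at 5 mM (adjusted p = 0.52) and by 0.36 at 10 mM (adjusted p = 0.0015).

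Of 12 parietal endoderm genes, all tested, 8 rose and 0 fell with 1 nM and 10 rose and 1 fell with 10 nM oligomycin, with median changes of 0.52 and 0.86. The 1 that fell was Lama1, which is in the basement membrane list too. With 2-DG, 6 rose and 3 fell at 5 mM and 5 rose and 3 fell at 10 mM. Thbd, thrombomodulin, averaged 12 ± 0.485 FPKM in controls, 17.8 ± 0.512 with 1 nM and 25.4 ± 1.23 with 10 nM oligomycin, and it also rose by 0.25 and 0.27 with 5 mM and 10 mM 2-DG. The keratin gene Krt8 averaged 104 ± 4.45, 148 ± 2.77 and 182 ± 23.2 FPKM over the same oligomycin doses, but fell to 73.1 ± 0.37 with 5 mM and 50.8 ± 1.94 with 10 mM 2-DG. Its partner Krt18 fell by 0.51 and 0.95 with 2-DG. Krt8 and Krt18 do not speak for the other listed keratin genes, among them Krt19, which the naming rule also selected. The vimentin gene Vim, which fibroblasts express strongly, rose by 1.53 with 10 nM oligomycin and by 0.64 with 10 mM 2-DG. Of the 5 SPARC relatives tested of 7, 2 rose and 1 fell with 1 nM and 4 rose and 1 fell with 10 nM oligomycin (3 and 1 without replicate 1), while 1 rose and 2 fell with 5 mM and 1 rose and 3 fell with 10 mM 2-DG. Smoc2, a matrix relative, changed by 0.95 and 1.36 with 1 nM and 10 nM oligomycin.

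Visceral endoderm genes were mostly near 0. Of 17 listed genes in the table, 5 passed the filter, and of these 1 rose and 1 fell with 1 nM and 0 rose and 3 fell with 10 nM oligomycin (1 and 3 without replicate 1), while 0 rose and 1 fell with 5 mM and 0 rose and 3 fell with 10 mM 2-DG. The list shares Lrp2, Cubn and Amn with the list of endocytic machinery. The alpha-fetoprotein gene Afp was at most 0.109 FPKM, the apolipoprotein gene Apoa1 at most 0.18 and the anterior visceral endoderm gene Cer1 at most 0.0643. The endoderm factor gene Hnf4a, from the list of other factors, was at most 0.0349. Each of these genes was chosen after its values were seen. Apoe, which macrophages also express, averaged 172 ± 17.1 FPKM in controls, rose to 227 ± 13.1 with 1 nM oligomycin (change 0.40, adjusted p = 0.0021) and fell to 107 ± 14.8 with 10 nM. With 2-DG it averaged 148 ± 7.93 FPKM at 5 mM (adjusted p = 0.087) and fell to 115 ± 4.48 at 10 mM.

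Transcripts of genes of the FGF signal upstream of Gata6 were described as well, while the signal itself was not measured. Of 17 FGF genes tested of 20, 6 rose and 7 fell with 1 nM and 6 rose and 8 fell with 10 nM oligomycin (6 and 7 without replicate 1), and 2 rose and 4 fell with 5 mM and 4 rose and 4 fell with 10 mM 2-DG. The ligand Fgf4 averaged 54.6 ± 1.52 FPKM in controls, 44.4 ± 2.08 with 1 nM and 19.3 ± 1.58 with 10 nM oligomycin (changes of -0.29 and -1.46), and it was not called with 2-DG (adjusted p of 0.82 and 0.066). The receptor Fgfr1 averaged 17.8 ± 0.268, 22.5 ± 0.973 and 26.0 ± 0.116 FPKM over control and the oligomycin doses. The receptor Fgfr2 rose by 0.25 with 10 nM oligomycin and by 0.21 and 0.25 with 5 mM and 10 mM 2-DG. The feedback gene Spry4 fell in all 4 comparisons, to 7.55 ± 0.419 FPKM with 10 nM oligomycin and 9.28 ± 0.39 with 10 mM 2-DG, against 19.4 ± 1.56 in controls. Dusp6 and Etv4 of the same list also had lower means than controls in all 4 treated groups, but not every gene followed. Spry2 averaged 53.5 FPKM in controls, 52.1 and 46.7 with 1 nM and 10 nM oligomycin, and 51.5 and 56.3 with 5 mM and 10 mM 2-DG. Etv5 averaged 66.4 FPKM in controls, 31.5 and 26.2 with the oligomycin doses, and 68.7 and 62.7 with the 2-DG doses.

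Factors that act with or against the members were listed too. Of 11 tested of 19, 4 rose and 5 fell with 1 nM and 4 rose and 7 fell with 10 nM oligomycin, and 4 rose and 1 fell with 5 mM and 6 rose and 3 fell with 10 mM 2-DG. Nanog, the epiblast factor that opposes Gata6, averaged 196 ± 5.04 FPKM in controls, 120 ± 3.10 with 1 nM and 56.1 ± 7.29 with 10 nM oligomycin, where Gata6 averaged 1.67 ± 0.321, 2.48 ± 0.457 and 3.63 ± 0.107 FPKM (SD, n = 3 each). Pou5f1 averaged 122 ± 11.6, 66.5 ± 1.14 and 30.2 ± 4.87 FPKM in the same order. With 2-DG, Nanog averaged 178 ± 7.99 FPKM at 5 mM and 167 ± 5.55 at 10 mM (changes of -0.14 and -0.23, adjusted p of 0.18 and 0.021), and Pou5f1 was not called (adjusted p of 0.94 and 0.22). At 10 nM oligomycin Nanog still stood far above Gata6 in FPKM, which is per length of exon. Sall4, which stem cells and primitive endoderm share, fell by 0.82 and 2.08 with 1 nM and 10 nM oligomycin and rose by 0.50 and 0.42 with 5 mM and 10 mM 2-DG. Zfpm1, a cofactor of GATA factors, averaged 4.71 ± 0.294, 7.58 ± 0.819 and 11.9 ± 0.761 FPKM over control, 1 nM and 10 nM oligomycin. Of 8 trophoblast genes tested of 10, 4 rose and 2 fell at each oligomycin dose, and 0 rose and 4 fell with 5 mM and 1 rose and 5 fell with 10 mM 2-DG. This list shares Krt8 and Krt18 with the parietal endoderm list and Gata3 with the factors above, so its counts are not separate from theirs.

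**Figure D4:**
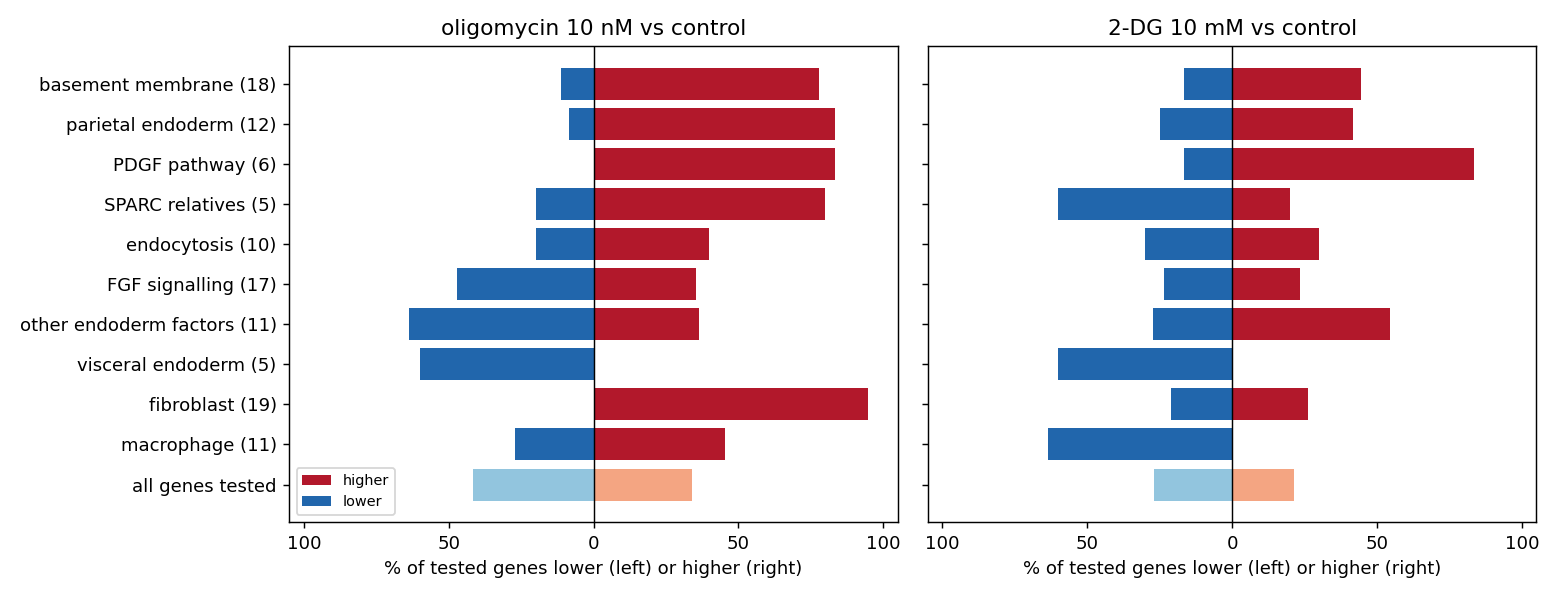
Share of tested genes of each list that were lower (left) or higher (right) than control at an adjusted p under 0.05, with 10 nM oligomycin and with 10 mM 2-DG; numbers in brackets are genes tested, and the lowest bar is all 13284 genes. With 10 nM oligomycin, 34% of all genes were higher and 41.7% lower, and 14 of 18 basement membrane genes were higher.

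Counted over the 6 members tested, oligomycin at 1 nM gave 3 rises (Gata6, Dab2, Sparc) and 0 falls, where 29.8% of all genes rose and 33.2% fell (63% in either direction). At 10 nM, 4 rose, with Pdgfra added, and 0 fell, where 34% of all genes rose and 41.7% fell (75.8% in either direction). The ranges of treated and control samples did not overlap for 3 members at 1 nM and 4 at 10 nM, where this held for 69.1% and 74.8% of all genes. The median change of the members was 0.28 and 0.48, against -0.03 and -0.08 over all genes. With 5 mM 2-DG 1 member rose (Sox7) and 2 fell (Gata4, Dab2), where 15% of all genes rose and 20.3% fell (35.3% in either direction), and the median was -0.08 against -0.02. With 10 mM 2-DG 3 rose (Gata6, Sox7, Sparc) and 1 fell (Dab2), where 21.4% of all genes rose and 26.8% fell (48.2% in either direction), and the median was 0.05 against -0.03. Ranges did not overlap for 4 members at each 2-DG dose, where this held for 50.7% of all genes at 5 mM and 58.8% at 10 mM. These 4 comparisons share the control samples, so the calls in them are not independent of each other.

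The dose step of oligomycin raised 3 members (Gata6, Dab2, Sparc) and lowered 0, where 18.7% of all genes rose and 27.6% fell (46.4% in either direction). That is 2489 and 3672 genes, and it was 3347 and 3042 after quantile normalization. Ranges were apart for 4 members and 51.3% of all genes. The dose step of 2-DG raised 1 (Sparc) and lowered 0, where 3.41% of all genes rose and 2.45% fell (5.86% in either direction), and ranges were apart for 2 members and 31.7% of all genes. With 10 mM 2-DG against 10 nM oligomycin, 1 member was higher (Sox7) and 4 were lower (Gata6, Dab2, Pdgfra, Sparc), where 37.7% of all genes were higher and 33.2% lower (70.8% in either direction), and ranges were apart for 5 members and 71.3% of all genes. Gata4 was not called there (change -0.17 ± 0.08, adjusted p = 0.065). The doses of the inhibitors are not matched in effect, so this sets 2 conditions side by side and not 2 equal inhibitions.

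**Figure D5:**
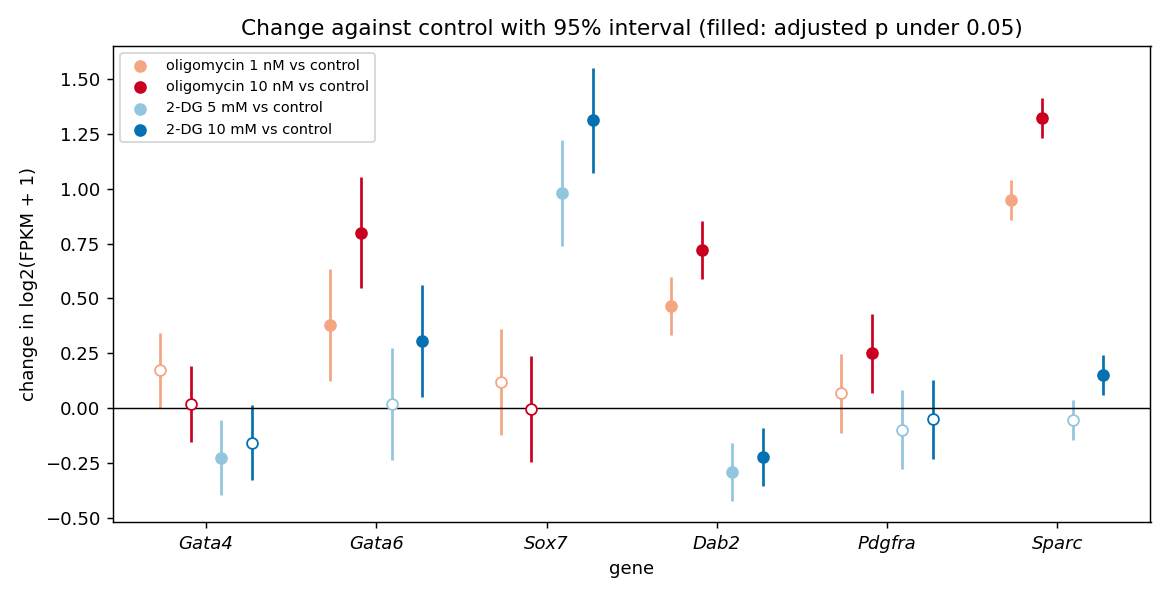
Change in log2(FPKM + 1) against control of the 6 members tested, with 95% intervals from limma; colours are the 4 treated groups, filled points have an adjusted p under 0.05. Sparc reaches 1.32 with 10 nM oligomycin and Sox7 reaches 1.31 with 10 mM 2-DG, and Dab2 lies above 0 with oligomycin and below 0 with 2-DG.

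Nearest profiles were also found for the other 3 members tested. For Gata6 they were Tbx4, Fam20c and Pld2, at root mean square differences of 0.0927, 0.109 and 0.109, and Tbx4 averaged 1.22 FPKM in controls, 1.85 with 1 nM and 2.77 with 10 nM oligomycin. For Pdgfra they were Tcf4, Gatsl2 and Zfp334, at 0.0552, 0.0621 and 0.0650. For Gata4 they were Tbc1d22b, Papd4 and Mkrn2, at 0.0762, 0.0763 and 0.0789. Gata4 and Pdgfra varied by only 0.156 and 0.145 around their means on this scale. An annotated transcript on the other strand overlaps Gata6 (1010001N08Rik, at most 0.227 FPKM) and Dab2 (Gm16311, at most 0.0797 FPKM), and Mir7025 lies within Pdgfra; whether the counting used strand is not given in the sources used here.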

How the data were processed

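Total RNA was sequenced in 15 samples. The authors deposited FPKM per gene. Bowtie2 2.2.3, HTSeq 0.6.0, HISAT2 2.1.0 and the GRCm38 build stand in the submitters' processing notes, which say nothing of their use. Raw counts were not used here. Reads per gene were worked out from the value steps with exon lengths of GENCODE M21: 95.4% to 96.1% of values worth 20 reads or fewer were whole within 0.05. For Gata6 the annotation gives 6508 bases, which did not make its values whole; 3194 bases was the smallest of 6 candidate lengths that did, and the next was 2.0 times it, so its reads could be higher by that factor.

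Values were analysed as log2(FPKM + 1) with limma 3.58.1 in R 4.3.3 (1 mean per group over all 15 samples, eBayes with a trend, two-sided moderated test). The 13284 genes that reached 1 FPKM in 3 or more samples were tested and 18868 were left out. P-values were adjusted by Benjamini-Hochberg over all genes tested in each of 7 comparisons, with a threshold of 0.05. The test was checked on simulated data with normal errors. Changes were planted there only in genes of higher average level than Gata4, Gata6, Sox7 and Pdgfra. Recovery of changes in genes as low as these was therefore not checked. Python 3.11.15 with pandas 2.3.3 and matplotlib 3.10.9 read and plotted the results. Promoter sequences are from RefSeq on GRCm38.p6, with chromosome 18 left out.

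The 8 members, the 13 lists beside them and the naming rule were chosen with earlier results of these data known. Named beside the members are up to 4 genes per list with the largest change past the threshold, averaging 5 FPKM or more in 1 of the groups compared, the 3 genes of nearest profile to each tested member, and Nanog, Pou5f1, Fgf4, Fgfr1, Fgfr2, Pdgfa, Col4a1, Col4a2, Lama1, Col1a1 and Acta2. Any other gene was chosen after its values were seen. Alternatives were another pseudocount, other filters, scalings and fits, a replicate block, and leaving out each replicate. The fibroblast sum without Acta2 was added after seeing the data.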

Additional observations from a re-analysis of the deposited data

How the results depend on the processing

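Of the alternative values computed for the 6 tested members over 7 comparisons, 512 kept their direction and side of the threshold, 27 lost a call, 8 gained one and 13 changed sign. The sign changes were in small changes that were called neither as reported nor there (adjusted p of 0.27 to 0.98). Sox7 with 10 nM oligomycin against control (-0.01 as reported) was 0.0185 with a pseudocount of 0.1, 0.0282 with median-ratio scaling and 0.1307 with quantile normalization, which also gave 0.0231 for Sox7 in 10 nM over 1 nM (-0.12) and 0.0156 for Pdgfra with 10 mM 2-DG (-0.05). Leaving out 1 replicate gave -0.1078 to 0.1276 for Sox7 and -0.0448 to 0.0904 for Gata4 with 10 nM oligomycin, -0.0098 to 0.1151 for Pdgfra with 1 nM and -0.0777 to 0.1065 for Gata6 with 5 mM 2-DG. No scaling moved the median of all genes by over 0.1. A filter of 5 FPKM keeps only Dab2 and Sparc, so the members called fell to 2 with 10 nM oligomycin (4 as reported), 1 with 5 mM 2-DG (3), 2 with 10 mM 2-DG (4) and 2 for 10 mM 2-DG against 10 nM oligomycin (5). For 10 mM against 5 mM 2-DG, where 1 member was called, quantile normalization gave 0 and a fit of those groups alone gave 2. Leaving out 1 replicate there gave 0 to 1 members and 273 to 469 genes, against 779 genes with all samples. The cause was not tested, beyond the fewer genes or samples of each alternative. With the replicate number as a block, the genes called were 8238 and 10023 for 1 nM and 10 nM oligomycin and 4463 and 6218 for 5 mM and 10 mM 2-DG, and the fall of Gata4 with 5 mM and the rise of Gata6 with 10 mM 2-DG were no longer called. Samples share only a number: deviations of same-numbered samples correlated at -0.238 to 0.371 over 30 pairs, and 7 of 15 samples were closest to their own number. Members with under 1 FPKM in some samples are limited by depth, since Sox7 rested on 27 to 59 reads in controls.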
